A study of Homo sapiens with 6 samples.

Results

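The 53 genes described here drive or mark progress through the cell division cycle: 17 act around the G1/S transition, 13 in S phase and 23 in G2 and mitosis (G2/M). They were chosen by symbol from a list drawn up with earlier results of these data known. All 53 were found among the 31831 genes of the count table and were counted often enough to be tested, as 53 of 17142 genes tested. The RNA came from HK-2, a human cell line of proximal tubule epithelium that was immortalised with the E6 and E7 genes of a human papillomavirus, cultured at 30 mM glucose over 72 h. The control group carried an empty vector delivered by lentivirus (HG-NC) and the other carried a lentiviral vector for hnRNP-F, an RNA-binding protein that takes part in splicing (HG-OE), with 3 RNA-seq libraries each. The methods describe parallel wells, and whether the libraries came from separate transductions is not given in the sources used here, so p-values measure the spread between these libraries.

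A resting cell enters the cycle when D-type cyclins with CDK4 and CDK6, and then E-type cyclins with CDK2, phosphorylate RB1 and its relatives. This frees E2F factors, which switch on genes for DNA replication. The MCM helicase is loaded on origins by CDC6 and CDT1 before S phase, and CDK inhibitors of the INK4 and CIP/KIP families hold the kinases back. Later, CDK1 with cyclins A and B drives mitosis, FOXM1 promotes the transcription of mitotic genes, and checkpoint, centromere and spindle proteins move the chromosomes. Because E7 binds RB proteins, HK-2 cells divide with this control weakened.

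The 6 libraries held 25507595 to 29444841 counted read pairs. HNRNPF, the gene of the overexpressed protein, lay at 82.9, 86.9 and 85.4 FPKM (fragments scaled to gene length and library size) in HG-NC (replicates 1, 2 and 3, in this order throughout) against 117.1, 121 and 114 in HG-OE, a log2 difference of 0.48. Of 12 markers of the proximal tubule, 0 reached 1 FPKM on average in either group (their sum was 1.34 to 3.88 FPKM), while 8 of 10 markers of kidney epithelium and cultured lines did. HG-OE replicate 3 stood apart: ALB, the albumin gene of liver, was at 38.4 FPKM there. It was at 0.73 in HG-NC replicate 3 and at 0 to 0.04 in the remaining libraries. The 13 liver markers summed to 167 FPKM in HG-OE replicate 3 against 83.6 and 84.4 in the other HG-OE libraries and 49.1 to 50.9 in HG-NC. Without SERPINA1, the antitrypsin gene, the same sum was 95.4 FPKM in HG-OE replicate 3, 3.21 in HG-NC replicate 3 and 0.85 to 1.5 in the remaining libraries. The difference between HG-NC and the other HG-OE libraries thus lay in SERPINA1. The 12 squamous markers summed to 32.4 FPKM in HG-OE replicate 3 against 5.09 to 6.75 elsewhere. The 8 leukocyte and endothelial markers summed to 8.68 FPKM in it and to 1.97 to 2.85 elsewhere. Among the 53 genes, 9 lay above the mean of the other HG-OE libraries by over 0.2 on the log2 CPM scale in this library (CCND1, CCNE2, CDC25A, E2F2, MCM7, CDT1, RRM2, AURKB and CENPA) and 0 lay below by that much. Results are therefore given with and without it where a call changes.

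Promoters of these genes carry known control elements, and sequences are shown to let the groups be compared. RefSeq (GRCh38.p14) windows were matched by symbol for 42 of the 53 genes. No window was used for the other 11: CCND1, CCND2, CDK2, CCNE2, MCM4, MCM5, AURKA, FOXM1, UBE2C, TPX2 and BIRC5. The first listed window was taken for each gene, and 11 of the 42 had more than 1 listed. Some windows lie inside the GENCODE gene, as do those of RRM2 and RB1 (window chr13:48476200-48476449, gene chr13:48303744-48599436). The 250 bases before the start were searched on both strands for an E2F site (TTTCCCGC, TTTCGCGC, TTTGCCGC or TTTGGCGC), for the CHR element of late cell cycle genes (TTTGAA) and for the CCAAT box that NF-Y binds. Below are the 150 bases before the start of 7 genes, chosen because these stretches overlap no GENCODE exon and show each kind of match, with E2F and CHR matches in genes that moved and in genes that did not. They are written 5′ to 3′ on the gene's strand with matches in capitals. Matches that overlap run together.

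E2F1, whose gene rose (chr20:33686386-33686535, minus strand), with 2 E2F sites and CCAAT boxes:
E2F1: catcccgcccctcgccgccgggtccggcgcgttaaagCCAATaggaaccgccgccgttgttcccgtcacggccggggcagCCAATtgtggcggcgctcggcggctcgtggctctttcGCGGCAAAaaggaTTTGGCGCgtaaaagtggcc
CDC25A, which rose (chr3:48188418-48188567, minus strand), with 1 E2F site and 2 CCAAT boxes:
CDC25A: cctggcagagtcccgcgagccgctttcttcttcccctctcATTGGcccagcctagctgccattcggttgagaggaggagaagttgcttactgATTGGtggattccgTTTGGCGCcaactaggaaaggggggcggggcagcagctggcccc
CDT1, which rose (chr16:88803639-88803788, plus strand), with 1 E2F site:
CDT1: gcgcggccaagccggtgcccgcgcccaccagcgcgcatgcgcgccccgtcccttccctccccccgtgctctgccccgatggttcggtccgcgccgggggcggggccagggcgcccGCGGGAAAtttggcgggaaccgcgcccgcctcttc
MCM6, not past the test (chr2:135876444-135876593, minus strand), with E2F sites and CCAAT boxes:
MCM6: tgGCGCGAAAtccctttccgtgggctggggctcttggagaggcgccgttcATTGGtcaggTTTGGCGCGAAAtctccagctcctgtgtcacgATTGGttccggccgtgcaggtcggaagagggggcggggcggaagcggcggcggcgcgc
KIF11, which fell (chr10:92592980-92593129, plus strand), with 1 CHR element and 1 CCAAT box:
KIF11: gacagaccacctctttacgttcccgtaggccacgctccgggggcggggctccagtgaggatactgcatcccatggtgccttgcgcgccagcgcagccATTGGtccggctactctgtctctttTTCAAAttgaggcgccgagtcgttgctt
MKI67, not past the test (chr10:128126424-128126573, minus strand), with 2 CHR elements and 2 CCAAT boxes:
MKI67: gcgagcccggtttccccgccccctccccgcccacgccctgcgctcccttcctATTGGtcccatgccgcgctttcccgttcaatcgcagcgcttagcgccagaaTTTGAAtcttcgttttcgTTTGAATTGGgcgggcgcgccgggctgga
KIF20A, which rose (chr5:138178962-138179111, plus strand), with CCAAT boxes alone:
KIF20A: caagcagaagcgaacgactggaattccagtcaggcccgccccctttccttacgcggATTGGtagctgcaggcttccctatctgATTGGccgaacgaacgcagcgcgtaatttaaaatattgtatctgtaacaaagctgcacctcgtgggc

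E2F letters were most frequent before S genes and CHR letters before G2/M genes. E2F letters were found in 6 of 11 S promoters (54.5%) and 4 of 13 G1/S promoters (30.8%), against 1 of 18 G2/M promoters (5.56%) and 4.35% of 11569 promoters of genes tested. CHR letters were found in 10 of 18 G2/M promoters (55.6%) and 8.28% of those of genes tested, and CCAAT letters in 15 of 18 (83.3%) against 34.9%. Among all 27305 promoters the shares were 2.79%, 13.6% and 33%. By direction, 6 of 10 promoters of genes that rose held E2F letters, as did 2 of 16 of genes that fell and 3 of 16 of genes not past the test. CHR letters stood in 2 of 4 G2/M promoters of genes that rose and in 5 of 9 of genes that fell. Windows inside the gene count here as promoters, so those of RB1 and RRM2 count as without E2F letters and that of KIF20A as without CHR letters. A match is a run of letters, not a shown binding site, and no test was made.

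**Figure D1:**
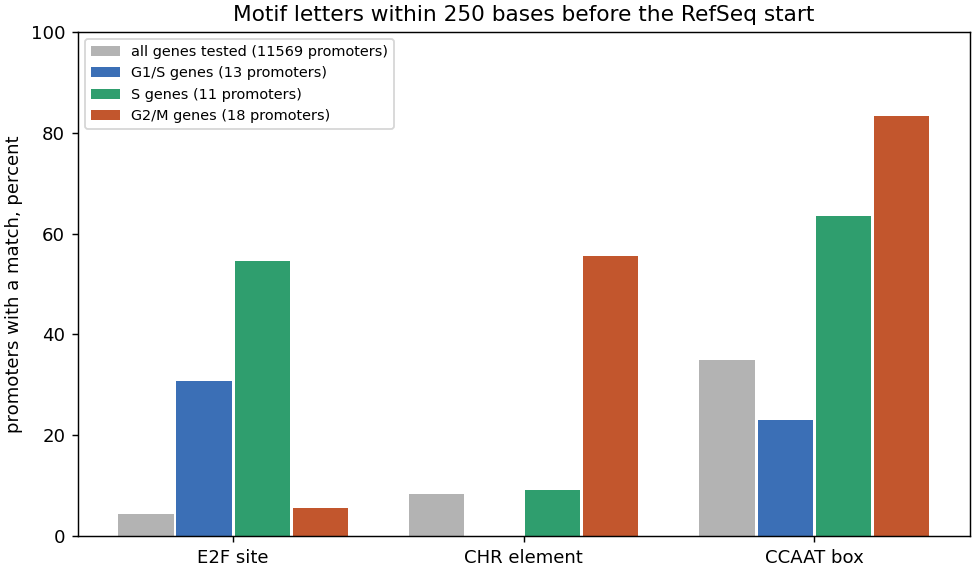
Percent of RefSeq promoters (y axis, 0 to 100) with at least 1 match of each element within 250 bases before the start, for all genes tested and for the G1/S, S and G2/M genes. The E2F bar is highest for S genes at 54.5%, and the CHR bar for G2/M genes at 55.6%.

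Cell cycle genes moved in both directions and mostly by little. In HG-OE against HG-NC, 16 of 53 rose and 18 fell at an adjusted p under 0.05 (edgeR's quasi-likelihood test, Benjamini-Hochberg adjustment over all genes tested), which is 64.2% of them. Of all genes tested, 51.8% passed, 25.9% higher and 25.9% lower, and of the 10675 genes counted at least as often as the least counted of the 53, 64.2% passed, 30.2% higher and 34% lower. The share of cell cycle genes that passed was the same as among genes of at least their counts. At a 2-fold change, 1 gene was called higher, the D-type cyclin CCND2, and 0 lower, against 3.69% and 2.13% of all genes and 1.08% and 0.843% of the genes of at least their counts. After CCND2, the largest rise was 1.65-fold and the largest fall was to 0.685 times the HG-NC level. The groups did not overlap for 38 genes (71.7%, against 59.0% of all genes tested and 69.5% of those of at least their counts). The median log2 fold change was -0.05 (all genes 0.01, genes of at least their counts -0.015). The median size was 0.196 (all genes 0.274, genes of at least their counts 0.229). In such bulk libraries, fewer cells in a phase and less RNA per cell cannot be told apart.

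More S genes rose than fell, and more G2/M genes fell than rose, the latter not when tested against a fold of 1.2 (glmTreat, 3 higher and 3 lower). Of the G1/S genes 5 rose, 6 fell and 6 did not pass (median -0.07), of the S genes 6 rose, 1 fell and 6 did not pass (median 0.04), and of the G2/M genes 5 rose, 11 fell and 7 did not pass (median -0.09). Relative to the HG-NC mean, the median of the G2/M genes was -0.09, -0.08 and -0.09 on the log2 scale in HG-OE replicates 1, 2 and 3, and that of the S genes 0.05, 0.07 and 0.09. The HG-NC libraries, held near 0 because they set that mean, lay between -0.02 and 0.01 for G2/M and between -0.02 and 0.03 for S. The G1/S median was 0.03, -0.04 and -0.03 in HG-OE, with HG-NC at -0.02 to 0.01, so these groups overlapped. Without HG-OE replicate 3, all 34 genes that passed still did and 5 more passed (E2F2, CDKN2A, MCM6, RRM1 and RRM2), which took the S genes lower from 1 to 4.

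**Figure D2:**
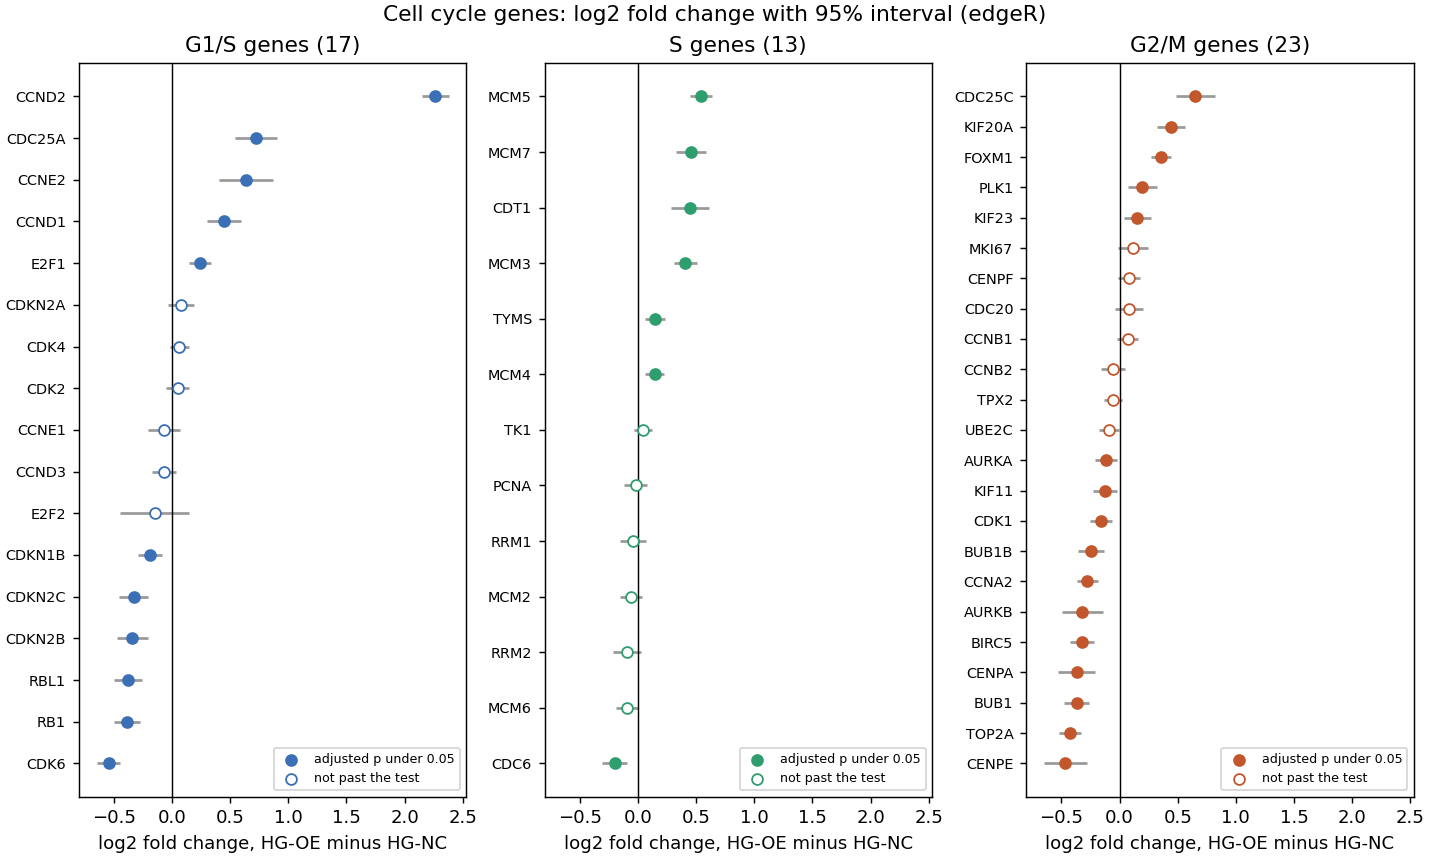
Log2 fold change (x axis, HG-OE minus HG-NC) of each of the 53 genes, by phase, with 95% intervals from edgeR; filled points passed an adjusted p under 0.05 and open points did not. CCND2 at 2.26 stands far from all others, which lie between -0.55 and 0.72.

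Among the D-type cyclins, which couple growth signals to the cycle, CCND2 and CCND1 rose. CCND2 (ENSG00000118971.9, chr12:4269771-4305353 of GRCh38) was counted 527, 582 and 540 times in the HG-NC libraries and 2885, 2891 and 2842 times in HG-OE, which makes 2.31, 2.4 and 2.17 FPKM in HG-NC and 11.1, 10.9 and 10.8 in HG-OE. The groups lay far apart and the replicates close together, at 2.29 ± 0.116 FPKM in HG-NC and 10.9 ± 0.165 in HG-OE as mean ± SD of 3 libraries. It rose 4.81-fold (log2 fold change 2.26, 95% interval 2.15 to 2.38, adjusted p = 4.90e-12). Of its exon bases, 12.5% are shared with RP11-388F6.5, a gene annotated on the same strand with a mean of 831 counts. CCND1, the cyclin most tied to growth factor signals, was at 15.9, 15.5 and 16.5 FPKM in HG-NC and 19.9, 20.1 and 24.5 in HG-OE. The groups did not overlap, HG-OE replicate 3 was highest, and the log2 fold change was 0.45 (SE 0.0685, adjusted p = 9.73e-05), 0.34 without that library and 0.25 without its neighbours' median. CCND3 lay at 13.1 ± 0.194 FPKM in HG-NC and 12.4 ± 0.841 in HG-OE, with overlapping groups (log2 fold change -0.07, interval -0.18 to 0.04).

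Summed, the 3 D-type cyclins came to 31.3 ± 0.453 FPKM in HG-NC and 44.8 ± 1.91 in HG-OE. CCND2 made up 7.43%, 7.72% and 6.81% of that sum in the HG-NC libraries and 25%, 25.3% and 22.9% in HG-OE (p = 0.1 in a two-sided exact permutation test, which cannot go lower with 3 libraries against 3). The share of CCND3 went from 41.8% ± 0.649 to 27.7% ± 2.63, while that of CCND1 overlapped between groups (50.8% ± 1.05 and 47.9% ± 3.85).

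**Figure D3:**
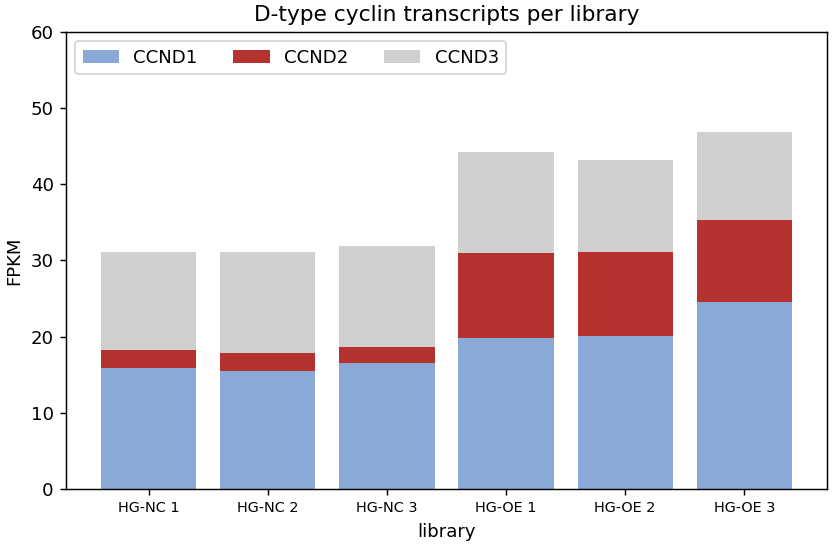
FPKM (y axis, from 0) of CCND1, CCND2 and CCND3 stacked for each of the 6 libraries. The CCND2 part grows from 2.17 to 2.40 FPKM in HG-NC to 10.8 to 11.1 in HG-OE.

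Of their kinases, CDK6 fell and CDK4 did not pass. CDK6 (ENSG00000105810.10, chr7:92604921-92836573 of GRCh38) was at 12.4, 12.4 and 12.3 FPKM in HG-NC and 8.92, 8.33 and 7.86 in HG-OE. It had the lowest log2 fold change of the 53 genes, -0.55 (SE 0.0456, adjusted p = 4.05e-07), with no overlap of the groups. CDK4, the other partner of D-type cyclins, was at 91.1 ± 2.29 FPKM in HG-NC and 94 ± 1.99 in HG-OE (log2 fold change 0.06, interval -0.02 to 0.14), so the ratio of CDK4 to CDK6 in FPKM went from 7.37 ± 0.162 to 11.3 ± 0.541. Of the exon bases of CDK4, 44.3% are shared with TSPAN31 on the opposite strand, and how the authors' counting treated strand is not given in the sources used here. CDK2, the kinase of E-type cyclins, did not pass either (0.05, interval -0.05 to 0.15).

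Of the E-type cyclins, which start S phase with CDK2, CCNE2 rose and CCNE1 did not pass. CCNE2 was at 2.22, 1.96 and 1.81 FPKM in HG-NC and 2.91, 2.82 and 3.47 in HG-OE, and rose by 0.64 (SE 0.107, adjusted p = 2.12e-04), 0.54 without HG-OE replicate 3. Of its exon bases, 37.05% are shared with INTS8 on the opposite strand, which was counted more often (means of 632 and 353). CCNE1 was at 9.51 ± 0.468 FPKM in HG-NC and 8.97 ± 0.301 in HG-OE (-0.07, interval -0.20 to 0.06). CDC25A, the phosphatase that removes inhibitory phosphates from CDKs, was at 3.73, 4.22 and 3.82 FPKM in HG-NC and 6.02, 5.93 and 7.23 in HG-OE, with HG-OE replicate 3 highest. Its log2 fold change was 0.72 (SE 0.0839, adjusted p = 8.67e-06) and 0.62 without that library. The 172 well-counted genes within 10 Mb of CDC25A on chromosome 3 had a median of 0.52 themselves, and with that median taken out CDC25A was at 0.20 (adjusted p = 0.066).

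RB1 and RBL1 fell and E2F1 rose. RB1, the retinoblastoma protein that holds E2F in check (ENSG00000139687.16, chr13:48303744-48599436 of GRCh38), was at 9.51, 9.53 and 9.34 FPKM in HG-NC and 7.54, 7.26 and 6.69 in HG-OE. All HG-OE libraries were below all HG-NC libraries, at a log2 fold change of -0.38 (SE 0.0511, adjusted p = 2.80e-05). RBL1, which encodes the RB relative p107, was at 4.43, 4.53 and 4.55 FPKM in HG-NC and 3.5, 3.46 and 3.33 in HG-OE and also fell by 0.38 (adjusted p = 8.36e-05). E2F1, an activator of S-phase genes, went from 25.8 ± 0.965 FPKM in HG-NC to 30.2 ± 1.05 in HG-OE and rose by 0.24 on the log2 scale (adjusted p = 4.68e-04), which was 0.06 (adjusted p = 0.28) with its neighbours' median taken out. E2F2, another activator, was the least counted of the 53 genes, with 188 to 279 counts a library. Its log2 fold change was -0.15 (interval -0.45 to 0.15), and without HG-OE replicate 3 it was -0.33 (adjusted p = 0.016).

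Of the 4 CDK inhibitors among the 53, 3 fell and 0 rose, where 34% of the genes of at least the counts of the 53 fell. All 3 calls were lost against a fold of 1.2 (glmTreat, adjusted p = 0.119 for CDKN2B and 0.15 for CDKN2C). Outside the 53, the inhibitor CDKN1C rose by 0.61 and CDKN2D fell by 0.66. CDKN2B, the INK4 inhibitor p15 of CDK4 and CDK6, was at 11.5, 12.5 and 12.9 FPKM in HG-NC and 10.2, 9.68 and 8.8 in HG-OE (log2 fold change -0.34, adjusted p = 3.93e-04). CDKN2C, the INK4 inhibitor p18, was at 8.17, 8.09 and 8.29 FPKM in HG-NC and 6.41, 6.37 and 6.57 in HG-OE (-0.33, adjusted p = 2.99e-04). CDKN1B, the inhibitor p27 of CDK2, fell by 0.19 (adjusted p = 0.00429), from 5.05 ± 0.0723 FPKM in HG-NC to 4.38 ± 0.108 in HG-OE. None of these groups overlapped. CDKN2A, next to CDKN2B on chromosome 9, encodes the INK4 inhibitor p16 and, from another first exon, ARF, which a count per gene does not separate. It was far more abundant, at 48.3, 52 and 51 FPKM in HG-NC and 55.6, 54 and 48 in HG-OE (log2 fold change 0.08, interval -0.04 to 0.19, and 0.14 with adjusted p = 0.0025 without HG-OE replicate 3). The ratio of CDKN2A to CDKN2B in FPKM went from 4.11 ± 0.126 to 5.49 ± 0.078.

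Of the 8 replication licensing genes among the 53, which load or form the MCM helicase, 5 rose and 1 fell (62.5% and 12.5%). Their median log2 fold change was 0.27. Of the genes of at least the counts of the 53, 30.2% rose and 34% fell. Outside the 53, the 16 genes of origin recognition and firing went mostly the other way, with 5 higher, 9 lower and a median of -0.30. MCM5 (ENSG00000100297.16, chr22:35400134-35425431 of GRCh38) was at 12.4, 13.7 and 13.7 FPKM in HG-NC and 18.8, 19.3 and 19.2 in HG-OE and rose by 0.54 (SE 0.0452, adjusted p = 3.98e-07). Its 185 neighbours on chromosome 22 had a median of 0.27, and 0.27 was left for MCM5 without it (adjusted p = 2.6e-04). MCM7 was at 49.9, 53.9 and 52.7 FPKM in HG-NC and 65.3, 67.9 and 79.2 in HG-OE and rose by 0.46 (SE 0.0614, adjusted p = 3.13e-05) and 0.37 without HG-OE replicate 3. MCM3 went from 43.5 ± 1.47 FPKM in HG-NC to 56.9 ± 3.09 in HG-OE (0.41, adjusted p = 6.08e-06). MCM4 rose by 0.14 (adjusted p = 0.00694).

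Of the 6 subunits of the MCM ring, 4 rose and 2 did not pass. MCM2 was at 41.9, 46.3 and 46.2 FPKM in HG-NC and 42.2, 42.9 and 42.2 in HG-OE, with overlapping groups (log2 fold change -0.06, interval -0.15 to 0.03), and MCM6 at 26.4, 26.4 and 27.6 FPKM in HG-NC and 23.8, 24.9 and 25.8 in HG-OE (-0.09, adjusted p = 0.083, and -0.12 with adjusted p = 0.014 without HG-OE replicate 3). In FPKM, MCM5 was the lowest of the 6 subunits in all 6 libraries (12.4 to 19.3) and MCM7 the highest (49.9 to 79.2), a ratio of 3.94 ± 0.087 in HG-NC and 3.71 ± 0.367 in HG-OE that overlapped between groups. CDT1, which loads the helicase together with CDC6, was at 12.7, 14.5 and 14.8 FPKM in HG-NC and 17.6, 18 and 21.1 in HG-OE and rose by 0.45 (SE 0.0747, adjusted p = 1.99e-04). CDC6 was the S gene that fell, from 11.9 ± 0.439 FPKM in HG-NC to 10.2 ± 0.454 in HG-OE (-0.20, adjusted p = 0.00344), but its 241 neighbours on chromosome 17 had a median of -0.25, and 0.05 was left without it (adjusted p = 0.41). The ratio of CDT1 to CDC6 went from 1.18 ± 0.119 to 1.85 ± 0.119.

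Genes for DNA synthesis and nucleotide supply mostly did not pass the test: 1 of 5 rose and 0 fell. PCNA, the sliding clamp of DNA polymerases and the most abundant of the 53 transcripts per length, was at 163, 160 and 158 FPKM in HG-NC and 147, 156 and 166 in HG-OE, with overlapping groups (log2 fold change -0.02, interval -0.12 to 0.08). Its neighbours on chromosome 20 had a median of -0.27, and with that taken out PCNA was at 0.25 (adjusted p = 5.9e-04). TYMS, thymidylate synthase, rose by 0.15 (adjusted p = 0.00765), a call lost with its neighbours' median removed (0.05, adjusted p = 0.35), and 39.9% of its exon bases are shared with ENOSF1 on the opposite strand. The ribonucleotide reductase subunits RRM1 (-0.04) and RRM2 (-0.09) and the thymidine kinase TK1 (0.04) did not pass. Without HG-OE replicate 3, RRM1 was at -0.11 (adjusted p = 0.033) and RRM2 at -0.17 (adjusted p = 0.0016).

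**Figure D4:**
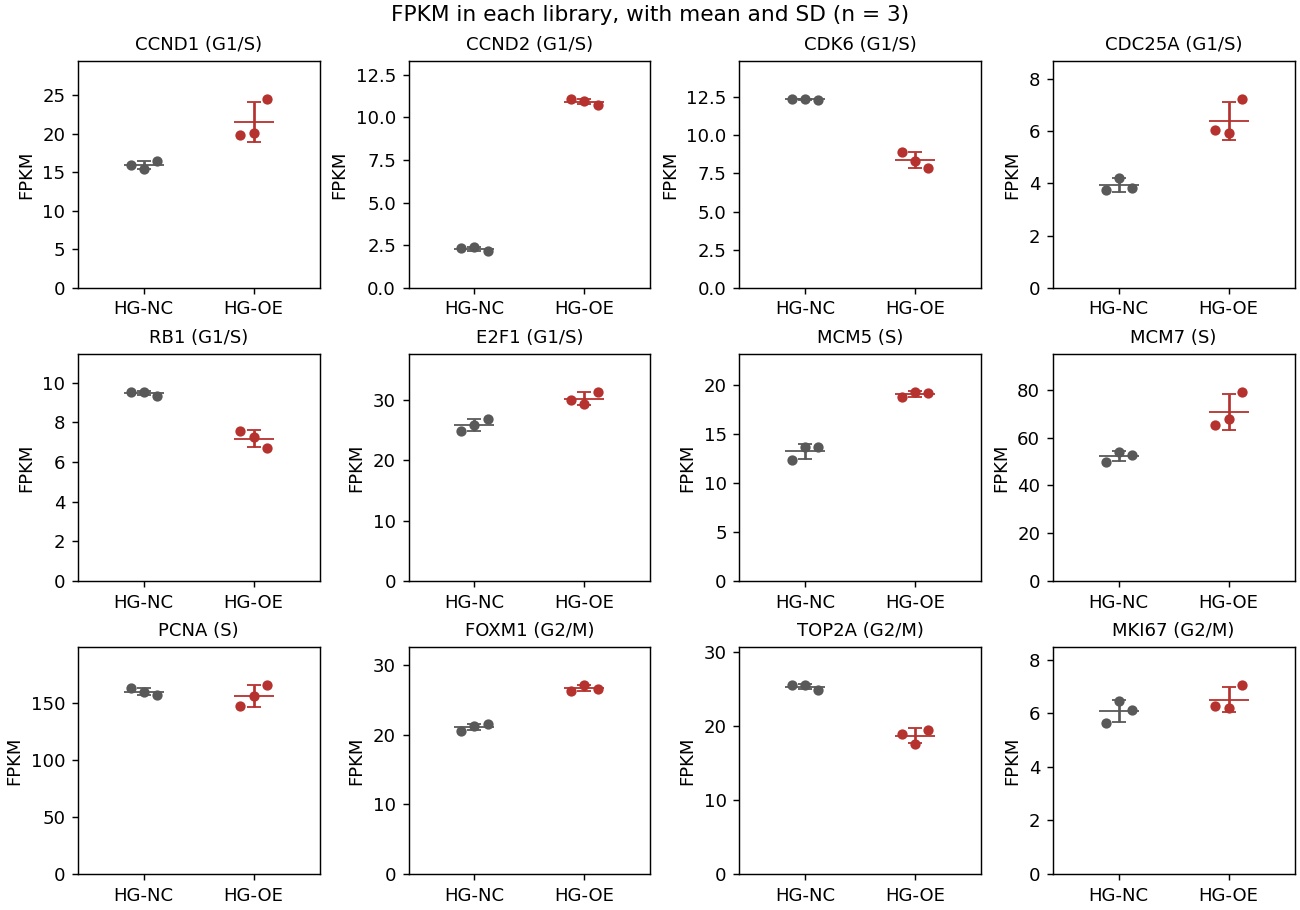
FPKM (y axes, from 0) of 12 genes in each library, HG-NC grey and HG-OE red, with the mean as a bar and the SD (n = 3) as whiskers. The groups are apart for all but PCNA and MKI67, and CCND2 moves from 2.29 ± 0.116 to 10.9 ± 0.165.

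Among the mitotic cyclins, kinases and FOXM1, 3 genes rose and 4 fell. FOXM1 (ENSG00000111206.13, chr12:2857680-2877174 of GRCh38), the transcription factor of mitotic genes, was at 20.6, 21.2 and 21.5 FPKM in HG-NC and 26.3, 27.1 and 26.6 in HG-OE and rose by 0.35 (SE 0.0389, adjusted p = 4.95e-06). CDC25C, the phosphatase that activates CDK1, was at 3.06, 2.83 and 3 FPKM in HG-NC and 4.62, 4.59 and 4.61 in HG-OE (0.65, SE 0.0777, adjusted p = 1.07e-05). PLK1, a kinase of mitotic entry, rose by 0.20 (adjusted p = 0.0105), a call lost without HG-NC replicate 1 (0.17, adjusted p = 0.058) without its neighbours' median (0.06, adjusted p = 0.40) and on log2 FPKM (limma, adjusted p = 0.0541 to 0.105 over 3 settings). CDK1, the kinase that drives mitosis, was at 20.7, 20.2 and 20.2 FPKM in HG-NC and 18.4, 17.1 and 18.8 in HG-OE. It fell by 0.16 (adjusted p = 0.00915), and the groups did not overlap. Of its B-type cyclins, CCNB1 was at 43.7, 42.4 and 41.2 FPKM in HG-NC and 43.4, 42.8 and 46 in HG-OE with overlapping groups (0.07, interval -0.02 to 0.16) and CCNB2 did not pass (-0.05). CCNA2, the A-type cyclin, fell from 34.2 ± 0.824 FPKM in HG-NC to 27.9 ± 0.931 in HG-OE (-0.28, adjusted p = 8.38e-05), but its 45 neighbours on chromosome 4 had a median of -0.39, and with that removed it turned to 0.11 (adjusted p = 0.047).

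The Aurora kinases both fell. AURKB, the kinase of the chromosomal passenger complex, was at 21.6, 22.7 and 23.2 FPKM in HG-NC and 17.1, 15.6 and 20.8 in HG-OE (log2 fold change -0.32, adjusted p = 0.00499), with HG-OE replicate 3 nearest to HG-NC and -0.44 without that library. With its neighbours' median removed it was at -0.21 (adjusted p = 0.051), and on log2 FPKM with no filter the adjusted p was 0.0714 (limma). AURKA, a kinase of the centrosome, fell by 0.12 (adjusted p = 0.0348), a call lost with any of 4 libraries left out (HG-NC replicates 1 and 3, HG-OE replicates 1 and 2; -0.09 to -0.12) and under upper quartile scaling (adjusted p = 0.11). With its neighbours' median removed it was at -0.26 (adjusted p = 2.2e-04). BIRC5 (survivin), a partner of AURKB, fell from 23.1 ± 0.86 FPKM in HG-NC to 18.2 ± 0.819 in HG-OE (-0.32, adjusted p = 6.11e-05), and -0.18 (adjusted p = 0.0056) was left without its neighbours' median.

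The spindle checkpoint kinases BUB1 and BUB1B fell, while CDC20 and UBE2C, which act with the anaphase-promoting complex, did not pass. BUB1 was at 8.4, 8.54 and 9.25 FPKM in HG-NC and 6.71, 6.51 and 6.84 in HG-OE (log2 fold change -0.37, adjusted p = 3.70e-05), and -0.13 (adjusted p = 0.052) with its neighbours' median removed. BUB1B went from 9.17 ± 0.175 FPKM in HG-NC to 7.65 ± 0.264 in HG-OE (-0.24, adjusted p = 0.00115). CDC20, the activator of the complex, was at 0.08 (interval -0.04 to 0.20), and UBE2C, its ubiquitin-conjugating enzyme, at -0.09 (adjusted p = 0.062). UBE2C passed as lower on log2 FPKM (limma, adjusted p = 0.027 to 0.0415 over 3 settings) and with its neighbours' median removed (-0.24, adjusted p = 2.1e-04). Among genes outside the 53, the subunits CDC27 (-0.57) and ANAPC1 (-0.25) and the activator FZR1 (-0.25) fell and the subunit CDC16 (-0.08) did not pass, genes named here after their values were seen. With its neighbours' median removed, ANAPC1 was at 0.04 (adjusted p = 0.63).

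Of the 8 centromere, kinesin and spindle genes, 2 rose and 4 fell. KIF20A, a kinesin of cytokinesis, was at 10.3, 11.6 and 11.7 FPKM in HG-NC and 14.7, 15.2 and 15.3 in HG-OE and rose by 0.44 (SE 0.0547, adjusted p = 1.43e-05), with 0.17 (adjusted p = 0.023) left without its neighbours' median. KIF23, its counterpart in the midbody, rose by 0.15 (adjusted p = 0.0314), a call lost without HG-NC replicate 1, HG-NC replicate 2 or HG-OE replicate 2 (0.11 to 0.16) without a low-count filter (adjusted p = 0.0591), without its neighbours' median (0.07) and on log2 FPKM (limma, adjusted p = 0.091 to 0.142 over 3 settings). CENPE, the kinesin that moves chromosomes to the spindle equator, was at 1.72, 1.45 and 1.61 FPKM in HG-NC and 1.11, 1.11 and 1.2 in HG-OE (-0.47, SE 0.0859, adjusted p = 4.49e-04). CENPA, the histone of the centromere, was at 16.9, 18.4 and 15.7 FPKM in HG-NC and 12.5, 12.2 and 14.4 in HG-OE (-0.37, adjusted p = 9.40e-04). With their neighbours' medians removed, CENPE was at -0.19 (adjusted p = 0.081) and CENPA at -0.05 (adjusted p = 0.59). KIF11, the kinesin that keeps spindle poles apart, fell by 0.13 (adjusted p = 0.0411), a call lost with any library but HG-OE replicate 3 left out (-0.10 to -0.14), under upper quartile scaling (adjusted p = 0.108), with at least 10 counts in every library (0.0522) and by the Wald test of DESeq2 (0.0799). CENPF (0.08) and TPX2 (-0.06) did not pass.

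Of 2 general markers of proliferation, TOP2A fell and MKI67 did not pass. MKI67, which encodes the Ki-67 antigen of cycling cells, was at 5.63, 6.47 and 6.13 FPKM in HG-NC and 6.26, 6.21 and 7.05 in HG-OE. Its groups overlapped and the log2 fold change was 0.11 (interval -0.01 to 0.24). TOP2A, the topoisomerase that untangles mitotic chromosomes (ENSG00000131747.15, chr17:40388525-40417896 of GRCh38), was at 25.5, 25.5 and 24.9 FPKM in HG-NC and 19, 17.5 and 19.5 in HG-OE and fell by 0.43 (SE 0.0435, adjusted p = 2.62e-06), with no overlap. Its 245 neighbours on chromosome 17 had a median of -0.25, and -0.17 was left without it (adjusted p = 0.0049).

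For the 19 genes that did not pass, the intervals bound the change only as estimated in the main fit, which used all 6 libraries. Leaving out E2F2, these intervals reached from -0.21 at the lowest to 0.24 at the highest on the log2 scale. They do not cover the other fits. Dropping HG-OE replicate 3 let 5 of the 19 genes pass. Taking out the median of neighbouring genes let 10 pass, and put PCNA (0.25), UBE2C (-0.24) and TPX2 (-0.23) beyond these bounds. Counts ran from 188 to 11497 per library and gene over the 53 genes, with a median absolute difference between HG-OE replicates 1 and 2 of 0.04 on the log2 CPM scale. Between HG-OE replicate 3 and the mean of replicates 1 and 2, it was 0.08.

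The surroundings of a gene on its chromosome moved with it in many cases. Each gene was set beside its neighbours, the other genes within 10 Mb that had a mean of at least 100 counts, by their median log2 fold change. It ran from -0.39 to 0.52 over the 53 genes and was larger than 0.1 in size for 31 of them. Of the 34 genes that passed, 29 (85.3%) had neighbours with a median of the same sign, as did 73.4% of 8856 genes that passed in all. Across the 53 genes, Pearson's r between a gene and its neighbours was 0.43, or 0.57 without CCND2, and 0.41 over all well-counted genes; nearby genes share neighbours, so no p is given. With the neighbours' median taken out of each gene, 34 genes passed again, 24 of them the same, 23 with the same sign. By this measure the S genes had 9 higher and 0 lower, the G2/M genes 6 higher and 8 lower, and the G1/S genes 4 higher and 7 lower. Of the calls over all genes in that fit, 51.3% were higher. The median entered as a fixed offset, so adjusted p-values with it removed, here and above, leave out its own error. CCND2 (2.23), CDK6 (-0.67), CCNE2 (0.72), RBL1 (-0.58), MCM3 (0.39), MCM7 (0.37), FOXM1 (0.32) and CDC25C (0.38) were among those that passed both ways, while 10 genes passed with the removal and not without it: CDKN2A, PCNA, RRM2, TK1, MCM6, CCNB1 and CENPF as higher and CCND3 (-0.16), UBE2C (-0.24) and TPX2 (-0.23) as lower. Why neighbouring genes moved together was not tested.

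**Figure D5:**
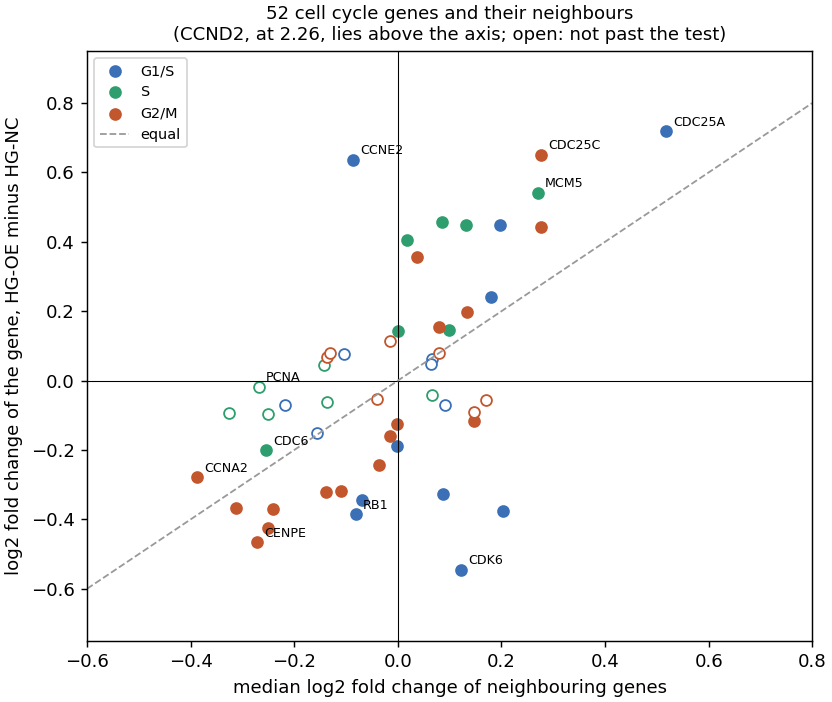
Log2 fold change of each gene (y axis) against the median of its neighbours within 10 Mb (x axis) for 52 genes, coloured by phase, filled if past the test; the dashed line marks equal values. CDC25A and CCNA2 lie at the extremes of the x axis (0.52 and -0.39), and CDK6 and CCNE2 changed in the direction opposite to their neighbours' median.

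In a wider set of cell cycle genes more fell than rose, and as many S genes rose as fell. Of 142 other genes, also listed with earlier results of these data known, 141 were tested (NUSAP1 was not). Of these, 33 rose, 51 fell and 57 did not pass, with a median of -0.05. That is 59.6% past the test, 23.4% higher and 36.2% lower. Of all genes tested 51.8% passed, 25.9% higher and 25.9% lower. Of genes with a mean of at least 100 counts 61.9% passed, 29.7% higher and 32.2% lower, so the share that fell was near that of such genes. By phase, 3 rose and 11 fell of 25 G1/S genes, 15 and 15 of 48 S genes, and 15 and 25 of 68 G2/M genes. Of 14 further E2F, RB and DREAM complex genes, 0 rose and 7 fell. Of 16 genes of origin recognition and firing, 5 rose and 9 fell, and of 32 replication fork and nucleotide genes, 10 rose and 6 fell.

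Named by size of change, the G1/S genes were led by SKP2, the F-box protein that marks p27 for destruction, which went from 0.383 ± 0.015 to 0.87 ± 0.373 FPKM (log2 fold change 1.19, 0.78 without HG-OE replicate 3, and not past the test on log2 FPKM with no filter, limma, adjusted p = 0.0908). CDKN1C, the inhibitor p57, rose by 0.61 and CCNG1, cyclin G1, by 0.40, the latter not past the test without its neighbours' median (0.09, adjusted p = 0.13). CDKN2D, the INK4 inhibitor p19, fell by 0.66, and CCNH and MNAT1, both of the CDK-activating kinase, each fell by 0.54. Among S genes, the origin subunit ORC1 (0.45), the helicase partner CDC45 (0.44) and the polymerase POLE (0.48) rose, and ORC4 (-0.78), the helicase partner GINS1 (-0.72) and the clamp loader RFC1 (-0.58) fell. The neighbours of ORC4 on chromosome 2 had a median of -0.59, with -0.19 left for ORC4 (adjusted p = 0.015), and CDC45 did not pass without its neighbours' median (0.14, adjusted p = 0.072). Among G2/M genes, the cyclin CCNF (0.55), the passenger protein INCENP (0.53, and 0.31 with adjusted p = 0.057 without its neighbours' median, and an adjusted p of 0.0624 on log2 FPKM with no filter) and the lamin LMNB1 (0.49) rose, and the kinetochore gene NUF2 (-0.71), the condensin subunit SMC4 (-0.70) and the anaphase-promoting complex subunit CDC27 (-0.57) fell. All 18 were picked as the largest changes among genes that passed (edgeR, adjusted p of 0.00304 or lower), so their passing adds nothing. Their groups did not overlap, as was so for 59.0% of all genes tested.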

How the data were processed

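Whole-cell poly(A) RNA of HK-2 cells was sequenced as directional paired-end libraries. Reads were trimmed by the authors and mapped to GRCh38 (HISAT2), and pairs with a single mapping position were counted for each gene. These deposited counts, whole numbers per gene, were used as given by the authors, and the deposited FPKM values, also by the authors, divide them by gene length and library size. The counting tool, its annotation and its strand setting are not given in the sources used here. The methods name ComBat_seq without naming batches, and whether it was applied to these counts is not stated, so they were treated as raw counts without that being known. Groups were taken from the labels, with glucose and hours from the methods. The mannitol samples were not analysed here.

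Counts were fitted in R 4.3.3 with edgeR 4.0.16 (TMM scaling, default low-count filter, quasi-likelihood test, HG-OE against HG-NC, no covariate), and p-values were adjusted over 17142 genes (Benjamini-Hochberg) with a threshold of 0.05. Fold changes come from this fit. Over all genes tested, the median was 0.01 (log2) and the biological coefficient of variation 0.0683. Exact permutation tests cannot go below 0.1 with 3 against 3. Positions come from GENCODE release 44, motifs from RefSeq promoters, without those on chromosome 8. Between replicates of a group, chi-square per degree of freedom was 2.36 to 13.6 over genes with at least 100 counts on average, so no pair of libraries agreed within sampling noise. With GENCODE exons, 18 of the 53 genes share exon bases with another gene that has a mean of at least 10 counts, 3 of them (BUB1B, CCND2 and CENPA) on the same strand; the shared part was largest for CDK4 (44.3%), TYMS (39.9%) and CCNE2 (37.05%). The fit was checked on simulated data.

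The genes and lists were chosen with earlier results of these data known. Named genes were HNRNPF, the 53 genes, and of the other cell cycle genes the 3 largest rises and 3 largest falls in each phase among those that passed with a mean of at least 100 counts. ANAPC1, FZR1 and CDC16 were named outside this rule, after their values were seen. Alternatives were other scalings (DESeq2 1.42.0 size factors, total count, upper quartile), other filters (none, at least 10 counts in every library), each library left out, the replicate number as a block, the Wald test of DESeq2, glmTreat against a fold of 1.2, limma 3.58.1 on log2 FPKM with a pseudocount of 1 or 0.1 and a mean FPKM of at least 0.1 or no filter, and the neighbours' median removed as an offset.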

Additional observations from a re-analysis of the deposited data

How the results depend on the processing

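Depth limited little here, since each gene had at least 188 counts in every library, but counts per gene do not separate transcripts, and 3 libraries a group set the precision. CCND2 was called at a 2-fold change under all alternatives run. Of the 34 genes that passed, the replicate block, the size factors of DESeq2 and total count alone kept all 34. The replicate numbers did not pair the libraries (correlation of deviations 0.06, 0.06 and 0.02 for those of the same number). Upper quartile scaling lost AURKA and KIF11, no low-count filter lost KIF23, and at least 10 counts in every library and the Wald test of DESeq2 each lost KIF11. Upper quartile scaling raised the median of all genes by 0.03 and moved the phase medians to -0.040 (G1/S), 0.073 (S) and -0.062 (G2/M) and PCNA to 0.011. Without a low-count filter the G2/M median was -0.11. Against a fold of 1.2 (glmTreat), 17 of the 34 passed. Of these 6 were lower, with 3 G1/S genes lower, 0 S genes lower, and 3 G2/M genes higher and 3 lower. The other cell cycle genes gave 12 higher and 23 lower, and all genes 2137 and 2023. On log2 FPKM (limma), 3 G2/M genes were higher under each of 3 settings (PLK1 and KIF23 were lost), and AURKB was lost without a filter. CENPE was at -0.28 with a pseudocount of 1, the G2/M median was -0.11, and 21 other cell cycle genes were higher without a filter.

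With the neighbours' median removed, 0 S genes were lower and the medians were -0.0043 (G1/S), 0.19 (S) and -0.054 (G2/M). The sign turned for PCNA (0.25), MCM2 (0.075), CDK4 (-0.0043), CDK2 (-0.015), CCNE1 (0.15), E2F2 (0.0058), MCM6 (0.16), CDC6 (0.053), RRM2 (0.23) and CCNA2 (0.11), of which CDC6 and CCNA2 had passed before. Its cause was not tested.

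With each library left out in turn, 1 to 4 S genes were lower (4 without HG-OE replicate 3) and 3 to 5 G2/M genes higher (3 without HG-NC replicate 1). The median log2 fold change ran from -0.078 to -0.029 for G1/S genes and from -0.10 to -0.078 for G2/M genes, and PCNA from -0.063 to 0.026, at 0.00043 without HG-NC replicate 1.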
